A study of Mus musculus with 19 samples.

Results

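The progestin and adiponectin receptor (PAQR) family was examined in hippocampal astrocytes through 10 genes, *Paqr4*, *Paqr5*, *Paqr6*, *Paqr7*, *Paqr8*, *Paqr9*, *Adipor1*, *Adipor2*, *Pgrmc1* and *Pgrmc2*, of the 60567 entries of the deposited table. They were taken by symbol, and each stands on 1 entry. The family was selected on the levels of *Paqr6* and *Paqr7* in WT-GFP mice, which stood higher in the GFP+ sort than in the GFP- sort. Values of the 10 genes in that contrast are therefore a description and carry no test.

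PAQR proteins cross the membrane several times. *Paqr7*, *Paqr8*, *Paqr5*, *Paqr6* and *Paqr9* encode the membrane progestin receptors α, β, γ, δ and ε, which bind progesterone and neurosteroids at the cell surface and signal through G proteins, unlike the nuclear progesterone receptor, a transcription factor. *Adipor1* and *Adipor2* encode the receptors of adiponectin, a hormone released by adipose tissue, which have ceramidase activity and act through APPL1, AMPK and PPARα. *Paqr4* encodes a Golgi member linked to ceramide handling. The 2 *Pgrmc* genes belong to another family, the cytochrome b5-like proteins with a heme site, and are included as membrane-associated progesterone receptor components.

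RNA was sequenced from cells sorted by GFP fluorescence from hippocampi of male C57bl6 mice that were 9 month-old. Adeno-associated vectors (AAV2/9) carrying the astrocyte promoter gfaABC1D, derived from that of *Gfap*, had been injected into CA1 months earlier in all mice. WT-GFP mice (7 samples of GFP+ astrocytes) are non-transgenic and received the GFP vector. APP-GFP mice (4 samples) received the same vector and are APP/PS1dE9, carrying a chimeric mouse/human *App* with the Swedish mutations. APP-SOCS3 mice (5 samples) are APP/PS1dE9 that received a vector for murine SOCS3, an inhibitor of JAK-STAT signalling, with the GFP vector. GFP- cells (3 samples) were sorted from WT-GFP mice only. By the study's description they pool microglia, neurons, oligodendrocyte precursor cells and astrocytes the vector had not reached. The study counts the astrocyte samples of each group as mice and describes the hippocampi of a mouse as sorted independently, and it does not state whether GFP- samples share mice with GFP+ samples.

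Values are normalized mRNA levels, which are reads on a gene divided by 1 size factor per sample. Samples had from 19331876 to 32621917 reads on genes. Genes detected numbered 15575 to 25514 (WT-GFP), 16471 to 25273 (APP-GFP), 22050 to 26757 (APP-SOCS3) and 30807 to 31897 (GFP- cells). WT-GFP replicate 3 and APP-GFP replicate 2 had the fewest of their groups and the highest *Paqr5*, 1044 and 496.2. APP-GFP replicate 2 also had the lowest *Paqr6*, *Paqr7* and *Paqr8* of its group and the highest *Paqr4*, *Adipor1*, *Pgrmc1* and *Pgrmc2*. The part of this in the results was not tested. *Socs3* had levels from 457.8 to 1208 in astrocytes of WT-GFP mice and from 438.3 to 1639 in those of APP-GFP mice. All 5 APP-SOCS3 samples were above these, from 13296 to 37750, and GFP- cells had 10320 to 17689. Summed levels of 15 astrocyte marker genes, set against their GFP- mean as 100%, ran from 1387 to 2026% (WT-GFP), from 1463 to 1867% (APP-GFP) and from 1550 to 2267% (APP-SOCS3). Genes of other cells were present in GFP+ samples too. Summed levels of 20 microglial genes were 6.99 to 24.9%, 10.1 to 56.9% and 5.02 to 9.72% in these 3 groups, and those of 15 endothelial genes were 2.52 to 24.2%, 3.49 to 19.9% and 0.740 to 3.86%. Of 10 oligodendrocyte genes, the sums were 166 to 248%, 212 to 639% and 138 to 219%. In GFP- cells these genes summed only to 2629 to 3422.5, so the percentages stand on a low reference. The study depleted myelin before sorting and describes oligodendrocyte markers as undetectable. The 639% came from APP-GFP replicate 2, with the other samples of that group at 212 to 227%. The sums do not stand for every gene. In WT-GFP mice, 2 of 9 tested were higher in astrocytes than in GFP- cells and 2 lower (limma, unadjusted *p* at most 0.05, fold at least 1.5). Their median log2 difference was -0.27. Over all genes tested, 9.25% were higher and 33.5% lower. In GFP- cells, summed levels ran from 165625 to 265236 for the endothelial genes and from 135267 to 178106 for 10 mural cell genes. Those of microglial genes ran from 161915 to 271622 and those of 14 neuronal genes from 4609 to 9542. This sort thus also held RNA of vascular cells, which the study's description does not name. In such bulk samples, fewer cells of a type and less RNA per cell cannot be told apart.

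Promoter sequences were available from RefSeq (build GRCm38.p6) for 9 of the 10 genes, and the windows run from 250 bases before to 50 bases after a start site. The window nearest to the gene start of the authors was used, which for *Adipor2* lies 28957 bases from it. Those of the membrane progestin receptor genes detected in astrocytes are printed, 5′ to 3′ on the strand of the gene, since these genes share a ligand class but had unlike levels among the sorted cells. Capitals mark the letters GGGCGG on either strand, the GC box that Sp and KLF zinc finger proteins bind. The windows are chr3:88364339-88364638 (+) for *Paqr6*, chr4:134496511-134496810 (+) for *Paqr7*, chr1:20890298-20890597 (+) for *Paqr8* and chr9:62026741-62027040 (-) for *Paqr5*.
Paqr6: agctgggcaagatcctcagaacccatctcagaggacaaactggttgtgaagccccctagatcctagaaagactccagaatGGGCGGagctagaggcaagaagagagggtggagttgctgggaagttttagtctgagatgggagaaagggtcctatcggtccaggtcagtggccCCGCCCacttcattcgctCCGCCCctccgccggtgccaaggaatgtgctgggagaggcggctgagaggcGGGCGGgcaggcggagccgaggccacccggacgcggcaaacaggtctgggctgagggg
Paqr7: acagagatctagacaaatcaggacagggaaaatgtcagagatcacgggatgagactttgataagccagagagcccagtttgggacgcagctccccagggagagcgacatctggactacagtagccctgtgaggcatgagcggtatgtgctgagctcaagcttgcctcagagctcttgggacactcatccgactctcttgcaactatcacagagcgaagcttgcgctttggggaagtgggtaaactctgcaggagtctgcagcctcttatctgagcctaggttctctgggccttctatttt
Paqr8: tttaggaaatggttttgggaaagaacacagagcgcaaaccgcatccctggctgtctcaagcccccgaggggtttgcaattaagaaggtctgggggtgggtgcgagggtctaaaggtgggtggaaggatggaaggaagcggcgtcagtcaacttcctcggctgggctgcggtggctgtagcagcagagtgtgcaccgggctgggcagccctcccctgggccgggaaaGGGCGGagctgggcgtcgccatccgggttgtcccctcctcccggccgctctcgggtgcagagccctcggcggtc
Paqr5: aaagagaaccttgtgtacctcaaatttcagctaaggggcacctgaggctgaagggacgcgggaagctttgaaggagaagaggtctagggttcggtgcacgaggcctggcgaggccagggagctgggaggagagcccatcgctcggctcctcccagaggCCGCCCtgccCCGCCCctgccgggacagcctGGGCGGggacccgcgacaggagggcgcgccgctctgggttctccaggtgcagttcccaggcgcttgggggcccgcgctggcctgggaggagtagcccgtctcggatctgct
GGGCGG occurs 4 times in the window of *Paqr6*, 3 times in that of *Paqr5*, once in that of *Paqr8* and not in that of *Paqr7*. Over the 9 genes, 7 windows hold it, beside 35.7% of the 32851 windows of this length in the table. The *Paqr7* window has 7 CpG dinucleotides, which is also the median over all windows, whereas those of *Paqr6*, *Paqr8* and *Paqr5* have 15, 19 and 21. The letters TTCNNNGAA, which STAT dimers bind, are in none of the 9 windows and in 8.30% of all windows. TATAAA, the TATA box, is likewise in none of the 9 and in 13.6% of all. No match says only that these letters are not in these windows.

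In WT-GFP mice, the 3 membrane progestin receptor genes *Paqr6*, *Paqr7* and *Paqr8*, and *Paqr4*, had higher levels in GFP+ astrocytes than in GFP- cells, *Paqr5* and *Paqr9* had lower ones, and the adiponectin receptor and *Pgrmc* genes differed less. *Paqr6* (membrane progestin receptor δ, chromosome 3 from 88364587 to 88368540 of mm10) had levels from 6727 to 11141 in the 7 astrocyte samples, with a median of 7984. Its levels in the 3 samples of GFP- cells were 526, 457.5 and 255.4. The groups lie far apart, and the ratio of their means was 19.9. On the log2(level + 1) scale the difference was 4.36, and 99.8% of the 26709 genes tested in this contrast had a lower one. That rank is part of what led to the family.

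*Paqr8* (membrane progestin receptor β, chromosome 1 from 20890604 to 20939551) ranged from 7406 to 19985 in WT-GFP astrocytes, with a median of 14196, and had 2729, 1331 and 1092 in GFP- cells. Its levels spread more among astrocyte samples than those of *Paqr6* or *Paqr7*, yet the groups did not overlap, with a ratio of means of 7.997. *Paqr7* (membrane progestin receptor α, chromosome 4 from 134496761 to 134510235) ranged from 12803 to 17607, with a median of 15499, and had 3048, 2556 and 2716 in GFP- cells. The ratio was 5.59, and the coefficient of variation over the astrocyte samples was 10.8%, the lowest of the 10 genes in this group. *Paqr4* (chromosome 17 from 23736186 to 23740353) ranged from 5362 to 11077 around a median of 6089, and had 1886, 2008 and 1779 in GFP- cells, a ratio of 3.75. Its span overlaps that of *Pkmyt1* on the opposite strand by 550 bp, and as the use of strand in counting is not stated, reads of this stretch could belong to either gene. The same holds for the small RNA genes *Gm24171*, which overlaps *Paqr8* by 131 bp, and *Gm23221*, which overlaps *Paqr5* by 93 bp.

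*Paqr5* (membrane progestin receptor γ, chromosome 9 from 61953481 to 62026805) was the reverse of *Paqr4*, *Paqr6*, *Paqr7* and *Paqr8*. It ranged from 157.9 to 1044 in WT-GFP astrocytes, with a median of 351.1, and had 1808, 2470 and 1910 in GFP- cells. Every astrocyte sample lies below every sample of GFP- cells, and the mean of GFP- cells was 4.23 times that of astrocytes. *Paqr9* (membrane progestin receptor ε, chromosome 9 from 95559817 to 95562121) was at 0 in 6 of the 7 WT-GFP astrocyte samples and at 27.5 in replicate 4, from 28 reads. In GFP- cells it had 130.7, 111.9 and 77.8. Since its fitted difference depends on the constant added before taking logs, no fold is given. The span given by the authors is shorter than that of the gene in GENCODE M21, from 95559657 to 95568023.

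*Adipor1* (chromosome 1 from 134415378 to 134433348) ranged from 1570 to 3156 in WT-GFP astrocytes, with a median of 1804, and had 2661, 2954 and 3411 in GFP- cells. Only astrocyte replicate 3, the highest, reaches into the range of GFP- cells. *Adipor2* (chromosome 6 from 119353150 to 119417691) ranged from 72.2 to 228.4 with a median of 107.1, and had 180.8, 263.9 and 318.2 in GFP- cells, again with overlap. *Pgrmc1* (chromosome X from 36598193 to 36606077) ranged from 5133 to 8037 with a median of 6816, and had 12509, 10944 and 8345 in GFP- cells. *Pgrmc2* (chromosome 3 from 41066328 to 41083046) ranged from 582.6 to 956.7 with a median of 839.0, and had 1409, 1559 and 1525. Both *Pgrmc* genes had groups that did not overlap, GFP- cells being higher. The log2 differences were -0.59 for *Adipor1*, -1.06 for *Adipor2*, -0.68 for *Pgrmc1* and -0.89 for *Pgrmc2*, all above the median of all genes tested, -1.31, and with equal upper quartiles in place of the authors' size factors those of *Adipor1* and *Pgrmc1* turned to 0.16 and 0.08.

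Ranges were apart in this contrast for 8 of the 10 genes, 4 in each direction, and for 34.8% of all genes tested. This share is given for scale only, as the contrast served to pick the family. Of the 10 genes, all but *Adipor1* and *Pgrmc1* kept the direction stated above under every alternative run. The plot of levels by sample shows each group of the 10 genes.

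**Figure D1:**
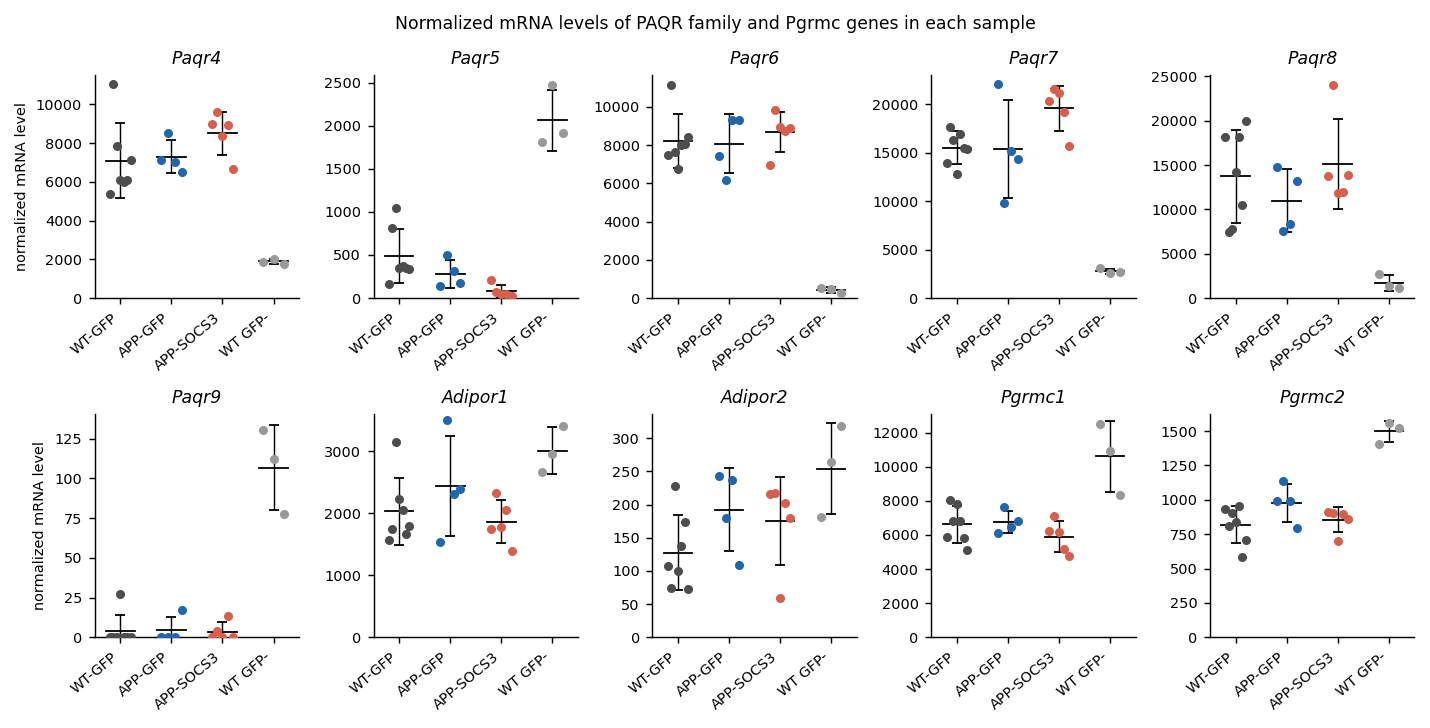
Normalized mRNA level (linear axis) of each of the 10 genes in every sample. Points are samples, horizontal bars are group means and whiskers are the SD (n = 7, 4, 5 and 3). *Paqr4*, *Paqr6*, *Paqr7* and *Paqr8* sit higher in the 3 astrocyte groups than in GFP- cells, while *Paqr5* and *Paqr9* sit lower, and *Paqr5* is lowest in APP-SOCS3 astrocytes.

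To compare genes with each other, levels were divided by the length of their merged exons in GENCODE M21. The constitutive length that the authors counted on is not given, so these levels per kilobase are approximate. That of *Paqr9* is understated, as the authors' entry covers only part of the 8367 bp of exons used here. In WT-GFP astrocytes, *Paqr7* stood first at 3639 ± 393 per kilobase (SD, n = 7), followed by *Pgrmc1* at 3565 ± 581, *Paqr6* at 3381 ± 577, *Paqr4* at 2681 ± 736 and *Paqr8* at 2502 ± 955. Neighbours in this order overlapped in range, so the order within these 5 genes is not larger than the spread between samples, although *Paqr6* was above *Paqr4* in 7 of 7 samples. Below a gap came *Adipor1* at 405 ± 108, *Pgrmc2* at 253 ± 41.2, *Paqr5* at 123 ± 80.0, *Adipor2* at 21.4 ± 9.53 and *Paqr9* at 0.470 ± 1.24. With the longest transcript as length, *Paqr6* moved to 4917 per kilobase and *Paqr7* to 4366, which turns their order.

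The order was another in GFP- cells. *Pgrmc1* stood first at 5708 ± 1133 per kilobase (SD, n = 3), followed by *Paqr4* at 715 ± 43.2, *Paqr7* at 651 ± 58.9, *Adipor1* at 599 ± 75.2, *Paqr5* at 522 ± 90.1, *Pgrmc2* at 462 ± 24.2, *Paqr8* at 313 ± 161 and *Paqr6* at 170.02 ± 57.9. *Adipor2* had 42.5 ± 11.6 and *Paqr9* 12.8 ± 3.21, and as the level of *Paqr9* is understated, the order of these genes is not settled. *Paqr6*, close to the top in astrocytes, was therefore the lowest of the membrane progestin receptors in GFP- cells apart from *Paqr9*.

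Summed over *Paqr5* to *Paqr9*, the membrane progestin receptors reached 9646 ± 979 per kilobase in WT-GFP astrocytes (SD, n = 7) and 1668 ± 234 in GFP- cells (n = 3). *Paqr7* made up 37.9 ± 3.99% of this sum in astrocytes and 39.3 ± 4.51% in GFP- cells. *Paqr6* made up 35.1 ± 4.84% in astrocytes and 10 ± 2.31% in GFP- cells, *Paqr8* 25.7 ± 8.65% and 18.2 ± 6.90%, and *Paqr5* 1.31 ± 0.912% and 31.7 ± 6.91%. The share of *Paqr7* overlapped between both sorts of cells, while those of *Paqr6* and *Paqr5* did not. Of the 2 adiponectin receptor genes, *Adipor1* held 95.02 ± 1.70% of their sum in WT-GFP astrocytes and 93.4 ± 1.01% in GFP- cells. *Pgrmc1* held 93.3 ± 1.13% and 92.3 ± 1.71% of the sum of both *Pgrmc* genes.

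**Figure D2:**
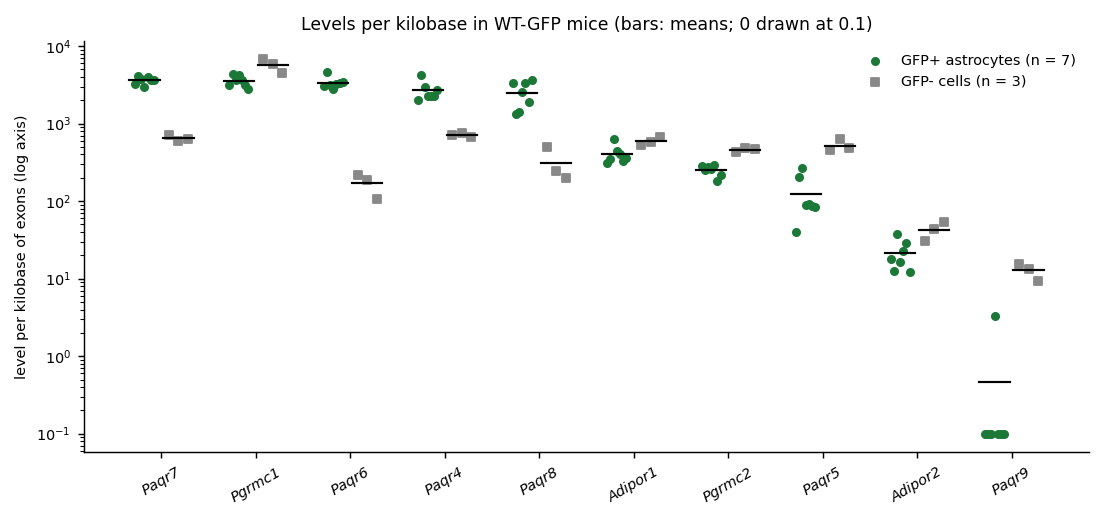
Level per kilobase of merged exons (log axis) of the 10 genes in the 7 samples of GFP+ astrocytes and the 3 samples of GFP- cells of WT-GFP mice. Points are samples and bars are means, with values of 0 drawn at 0.1. *Paqr7*, *Pgrmc1*, *Paqr6*, *Paqr4* and *Paqr8* lie together at the top in astrocytes, and *Paqr6* shows the widest gap between both sorts of cells among these 5.

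The astrocyte groups were then compared with limma on log2(level + 1), and genes were called where the fold change reached 1.5 with an unadjusted *p* no larger than 0.05, the study's own thresholds. *Paqr9* was under the minimum mean level of 10 in these comparisons and was not tested with limma. It had 17.4 in APP-GFP replicate 4 and 0 in the other 3 samples, and 3.72 and 13.7 in APP-SOCS3 replicates 2 and 4 and 0 in the other 3.

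In APP-GFP against WT-GFP astrocytes, the comparison that addresses the effect of the transgenes, 0 of the 9 genes tested were called, beside 2.23% of the 22969 genes tested. None of the 9 had an unadjusted *p* of at most 0.05 with limma, and 0 were called with edgeR or DESeq2. *Paqr6* had 7443, 6178, 9317 and 9331 in the 4 APP-GFP samples, inside the WT-GFP range save for replicate 2. The log2 difference was -0.03 with a 95% confidence interval from -0.38 to 0.32. *Paqr7* had 22063, 9847, 15121 and 14327, so that 1 sample lies above and 1 below all 7 WT-GFP samples, and the difference was -0.07 (-0.46 to 0.33). *Paqr8* had 14754, 7515, 8400 and 13199, all within the WT-GFP range, with a difference of -0.28 (-0.95 to 0.38). *Paqr4* had 7149, 8519, 7005 and 6528, also within that range, with a difference of 0.08 (-0.33 to 0.48).

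*Paqr5* had 142.1, 496.2, 312.6 and 177.8 in APP-GFP astrocytes, 3 of them inside the WT-GFP range, and the log2 difference was -0.72 (-1.84 to 0.41). *Adipor1* had 1536, 3500, 2320 and 2386, with a difference of 0.24 (-0.30 to 0.77). *Adipor2* had 243.5, 180.3, 236.4 and 109.0, and the difference was 0.63 with the wide interval of -0.42 to 1.68. *Pgrmc1* had 6097, 7647, 6463 and 6800, all within the WT-GFP range, with a difference of 0.04 (-0.29 to 0.37). *Pgrmc2* had 989.4, 1137, 990.3 and 796.8, of which 3 are above all WT-GFP samples, with a difference of 0.26 (-0.21 to 0.73). Exact permutation *p* values of the 10 genes, *Paqr9* included, ran from 0.0909 to 1, where the smallest that 4 against 7 samples allow is 0.00606.

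In APP-SOCS3 against APP-GFP astrocytes, the comparison that addresses the effect of SOCS3 in APP mice, 1 of the 9 genes tested was called, beside 5.70% of the 22844 genes tested. This gene was *Paqr5*. It had 210.9, 67.9, 50.01, 51.0 and 24.6 in the 5 APP-SOCS3 samples, against 142.1, 496.2, 312.6 and 177.8 in APP-GFP. Of the 5 APP-SOCS3 samples, 4 are below every APP-GFP sample, and replicate 1 is above 2 of them. The means were 80.9 ± 74.3 (SD, n = 5) and 282 ± 160.4 (n = 4). The log2 difference was -1.997 ± 0.63 (SE), with a limma *p* of 0.00879, an adjusted *p* (Benjamini-Hochberg) of 0.641 and an exact permutation *p* of 0.0476. *Paqr5* was called under each alternative that keeps these thresholds, but not at an adjusted *p* under 0.05.

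*Paqr7* had 20274, 21519, 21094, 19203 and 15717 in APP-SOCS3 astrocytes. All 5 lie above 3 of the APP-GFP samples, and APP-GFP replicate 1, at 22063, lies above all 5. The log2 difference was 0.40 ± 0.20 (SE; adjusted *p* = 0.814, limma; exact permutation *p* = 0.159), which was not called. *Paqr8* had 13744, 24055, 11893, 11975 and 13827, overlapping with APP-GFP, and a difference of 0.47 ± 0.25 (SE; adjusted *p* = 0.816, limma; exact permutation *p* = 0.206). Without APP-GFP replicate 1 both genes were called higher, with differences of 0.59 and 0.63 and unadjusted limma *p* values of 0.00603 and 0.0357. Then 3 of the 9 genes were called. Leaving out any 1 sample gave differences from 0.21 to 0.59 for *Paqr7* and from 0.28 to 0.63 for *Paqr8*. Both differences thus depend on single libraries, in either direction.

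The other 6 genes tested were not called in this comparison. *Paqr6* had 6949, 9839, 8952, 8740 and 8907, with a log2 difference of 0.12 (95% confidence interval -0.23 to 0.46). *Paqr4* had 8975, 9611, 8365, 8913 and 6649, with 0.22 (-0.09 to 0.52). *Adipor1* had 1755, 2336, 1783, 2057 and 1398, with -0.34 (-0.86 to 0.17). *Adipor2* had 216.4, 217.6, 60.0, 201.9 and 180.2, where replicate 3 stands apart, with -0.20 (-1.22 to 0.82). *Pgrmc1* had 6239, 7088, 6150, 5195 and 4792, with -0.21 (-0.52 to 0.11), and *Pgrmc2* had 911.9, 905.9, 698.1, 898.8 and 861.3, with -0.19 (-0.57 to 0.20). Every one of these 6 genes overlapped between the groups.

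In APP-SOCS3 against WT-GFP astrocytes, 1 of the 9 genes tested was called, beside 5.21% of the 22958 genes tested. This comparison shares its samples with the other 2, so its values are not a separate line of evidence. The gene was again *Paqr5*, with a log2 difference of -2.71 ± 0.56 (SE; *p* = 0.000245, adjusted *p* = 0.171, limma; exact permutation *p* = 0.00505). APP-SOCS3 replicate 1, at 210.9, lies above the lowest WT-GFP sample, at 157.9, and the other 4 lie below all 7. *Paqr7* had an unadjusted *p* of 0.0101 (adjusted *p* = 0.649, limma; exact permutation *p* = 0.0101) but a difference of 0.33 ± 0.11 (SE), which is under the fold threshold. Of the 5 APP-SOCS3 samples, 4 had more *Paqr7* than all 7 WT-GFP samples. The differences of the other 7 genes ran from -0.17 for *Pgrmc1* to 0.43 for *Adipor2*, and each interval included 0.

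**Figure D3:**
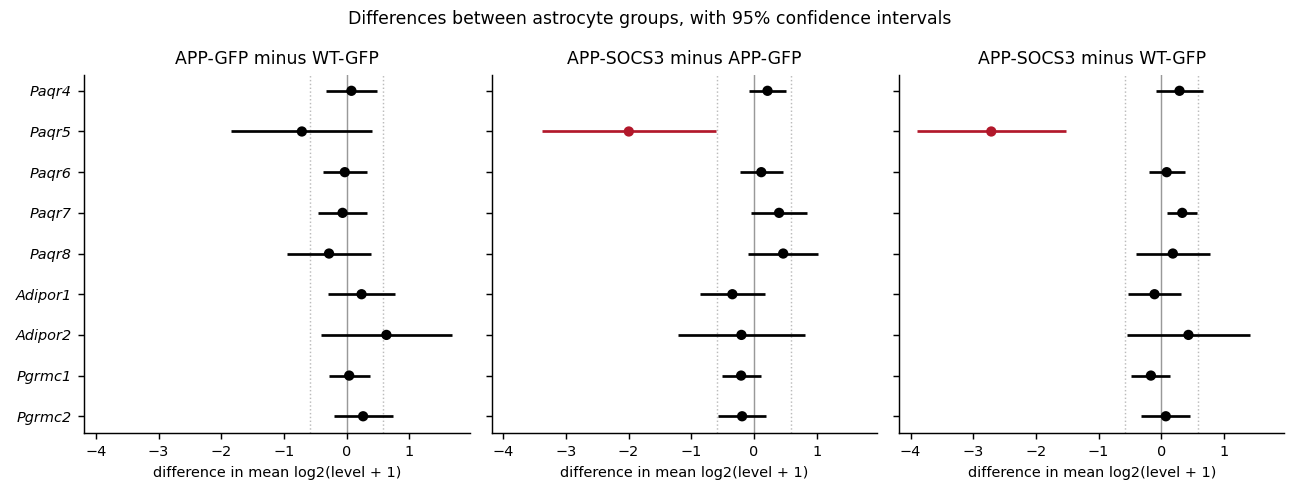
Differences in mean log2(level + 1) between astrocyte groups for the 9 genes tested, with 95% confidence intervals from limma. Dotted lines mark a fold change of 1.5 in either direction, and red marks a called gene. *Paqr5* is red in both comparisons with APP-SOCS3 astrocytes, at -1.997 and -2.71, and no gene is red in APP-GFP minus WT-GFP.

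The membrane progestin receptor sum was 8993 ± 1943 per kilobase in APP-GFP (SD, n = 4) and 10938 ± 1474 in APP-SOCS3 astrocytes (n = 5), and the ranges of the 3 astrocyte groups overlapped. *Paqr7*, *Paqr6* and *Paqr8* made up nearly all of it in each group. Their shares were 39.5 ± 5.51%, 37.6 ± 6.57% and 21.998 ± 3.64% in APP-GFP astrocytes, and 42.2 ± 4.54%, 32.8 ± 3.69% and 24.8 ± 4.87% in APP-SOCS3 astrocytes. The share of *Paqr5* was 0.912 ± 0.747% in APP-GFP and 0.191 ± 0.188% in APP-SOCS3 astrocytes.

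Marker genes of other cells moved in the same comparisons as *Paqr5*. Of 15 endothelial genes, 14 were called lower and 0 higher in APP-SOCS3 than in APP-GFP astrocytes, with a median log2 difference of -2.69, and 11 were called lower than in WT-GFP, with a median of -2.48. The exception in the first comparison was *Ptprb*, at -0.45 (adjusted *p* = 0.918, limma). Of 20 microglial genes, 19 were called lower than in APP-GFP, with a median of -2.06, and 13 lower than in WT-GFP. Of 10 mural cell genes, 4 were called lower in each comparison. Against APP-GFP, called lower were 4 of 13 neuronal, 4 of 9 oligodendrocyte precursor, 1 of 9 oligodendrocyte and 1 of 15 astrocyte genes tested. Genes called higher numbered 0 in these lists. Against WT-GFP, called lower were 2 of 9 precursor, 1 of 7 oligodendrocyte and 1 of 15 astrocyte genes. Of 13 neuronal genes, 0 were lower there and 1 higher. Over all genes tested, 3.37% were called lower than in APP-GFP and 2.02% lower than in WT-GFP. An adjusted *p* under 0.05 (limma) was reached by 0 marker genes against APP-GFP and by 1 microglial gene against WT-GFP. The median over all genes tested was 0.08 and 0.19 in these comparisons.

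By sample, *Paqr5* stood at 10.2, 3.29, 2.42, 2.47 and 1.19% of the mean of GFP- cells in APP-SOCS3 replicates 1 to 5, and the summed endothelial genes at 3.86, 1.38, 1.19, 1.02 and 0.740%. In APP-GFP replicates 1 to 4, *Paqr5* stood at 6.89, 24.1, 15.2 and 8.62%, and the endothelial genes at 4.26, 19.9, 10.8 and 3.49%. The APP-SOCS3 sample with most *Paqr5* is also the one with most endothelial RNA, and so is the APP-GFP sample. Mural cell genes were highest in APP-SOCS3 replicate 4, at 2.64%, and in APP-GFP replicate 2, at 13.8%. Microglial genes were highest in replicate 3 of both groups, at 9.72% (APP-SOCS3) and 56.9% (APP-GFP). In WT-GFP astrocytes, replicate 1 was lowest in both, at 7.66% and 2.52%. Replicate 3 had the highest *Paqr5*, at 50.6%, with endothelial genes at 7.995%, whereas replicate 2, with endothelial genes at 24.2%, had *Paqr5* at 39.4%. No endothelial marker gene was at 0 in every sample of a group. The part of these other cells in the *Paqr5* result was not tested.

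**Figure D4:**
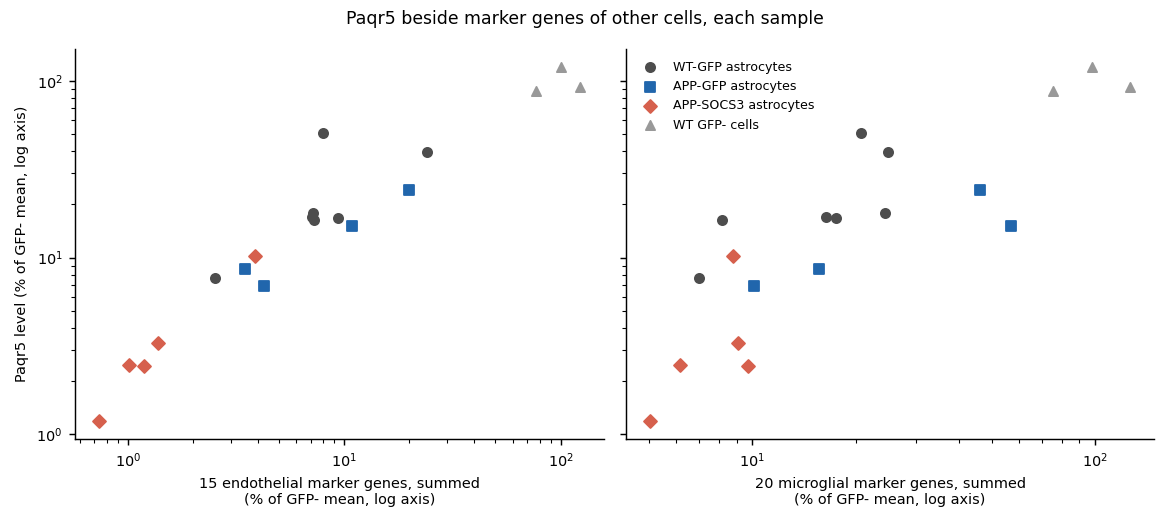
*Paqr5* level against the summed level of 15 endothelial (left) or 20 microglial (right) marker genes in each of the 19 samples, with the GFP- mean as 100%, on log axes. Symbols mark the groups. The 4 APP-SOCS3 samples with least *Paqr5* (1.19 to 3.29%) are also the 4 with least endothelial RNA (0.740 to 1.38%) of all samples.

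Genes with the most similar pattern over the 16 samples of GFP+ astrocytes were listed for *Paqr6*, *Paqr7*, *Paqr8* and *Adipor2*, among the 12166 genes whose mean level reached 100 there. Genes in 1 sample share a library and a size factor, so these correlations are descriptions. For *Paqr6* they were *Slc4a3*, *Trp53i13* and *Asphd2*, with Pearson's r of 0.82, 0.81 and 0.81 and Spearman's rho of 0.78, 0.85 and 0.79. Without the 2 samples farthest from the median of *Paqr6*, r was 0.67, 0.73 and 0.71. For *Paqr7* they were the Wnt receptor gene *Fzd2*, *Rasl11b* and *Lap3*, with r of 0.90, 0.84 and 0.83, rho of 0.79, 0.68 and 0.81, and r of 0.86, 0.71 and 0.62 without 2 samples. For *Paqr8* they were *Alg2*, a mannosyltransferase gene of N-glycosylation, *Yipf6* and *Cadm2*, a cell adhesion gene. Their r was 0.91, 0.90 and 0.90, rho 0.84, 0.89 and 0.90, and r without 2 samples 0.88, 0.86 and 0.84. For *Adipor2* they were *Gm7008*, *Ifrd1* and *Adi1*, with r of 0.84, 0.80 and 0.74, rho of 0.86, 0.71 and 0.55, and r of 0.82, 0.70 and 0.60 without 2 samples.

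*Paqr5* was added to this list after its values were seen. The genes most like it were *Itm2a*, *Degs2* and the VEGF receptor gene *Flt1*, with r of 0.95, 0.94 and 0.94, rho of 0.94, 0.97 and 0.92, and r of 0.92, 0.92 and 0.90 without 2 samples. *Itm2a* and *Flt1* are among the 15 endothelial marker genes. With group means removed, r was 0.90, 0.88 and 0.89. Also seen in the values and outside this list, the 3 genes most like *Pgrmc1* were *Ltc4s*, *Rdx* and *Fcrls*. Their r was 0.88, 0.84 and 0.82, rho 0.82, 0.86 and 0.79, and r without 2 samples 0.81, 0.74 and 0.75. *Fcrls* is one of the 20 microglial marker genes.

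Other genes of the pathways were taken from lists of 44 genes in all, which hold the remaining PAQR genes, partners of PGRMC1, ceramidases, neurosteroid enzymes, adiponectin signalling and G proteins. Of these, 35 were tested in APP-GFP against WT-GFP astrocytes and 0 were called with limma. In APP-SOCS3 against APP-GFP astrocytes, 1 of 35 was called, the alkaline ceramidase gene *Acer2*. It had 11.0, 133.9, 60.0, 41.2 and 8.79 in APP-SOCS3 and 82.4, 209.7, 530.2 and 144.7 in APP-GFP astrocytes, which overlap, with a log2 difference of -2.53 (adjusted *p* = 0.647, limma; exact permutation *p* = 0.0317). The call was lost with all 19 samples in one fit and without APP-GFP replicate 3. In APP-SOCS3 against WT-GFP astrocytes, 1 of 34 was called, *Akr1c14*, the 3α-hydroxysteroid dehydrogenase gene that makes allopregnanolone. It was at 9.80 in APP-SOCS3 replicate 4 and at 0 in the other 4 samples. In WT-GFP it was at 406.1 in replicate 3, at 0 in replicate 2 and from 48.4 to 70.5 in the other 5, so that the groups overlap, with an unadjusted limma *p* of 0.00256 and an adjusted *p* of 0.362. Like *Paqr5*, both genes had higher levels in GFP- cells, 4736 ± 612 for *Acer2* and 611 ± 182 for *Akr1c14* (SD, n = 3).

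Between GFP+ astrocytes and GFP- cells, 25 of 36 pathway genes tested were called, 12 higher and 13 lower in astrocytes, beside 42.8% of all genes tested, and 21 had an adjusted *p* under 0.05. The lists were drawn up around the family with earlier results of these data known. Calls of their genes in this contrast are thus descriptions and no separate support for the pattern of the 10 genes. The PAQR gene *Mmd2* was higher, with a log2 difference of 3.63, from 71109 to 109424 in astrocytes and from 3886 to 11458 in GFP- cells. Per kilobase it stood at 17977 ± 2947 in WT-GFP astrocytes, above each of the 10 genes, while its relative *Mmd* was called lower at -1.69. The span of *Mmd* overlaps that of the protein-coding gene *Gm45716* on the same strand by 63573 bp, so reads there could belong to either. *Paqr3*, which encodes a Golgi protein, was not called. Its entry runs from 97089730 to 97094826, shorter than the gene in GENCODE M21, from 97082329 to 97111596. *Mmd2*, *Paqr3* and *Cyp11a1* have 2 entries each, of which the one with the highest total was used.

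Of 6 relatives and partners of PGRMC1, 4 were called higher and 1 lower. The sigma-2 receptor gene *Tmem97* differed by 2.33, the cholesterol synthesis gene *Cyp51* by 1.30, *Por*, which supplies electrons to cytochromes P450, by 1.03, and *Serbp1* by -0.86. Of 9 genes tested on the neurosteroid list, 3 were called in each direction. *Cyp7b1*, an oxysterol and neurosteroid 7α-hydroxylase gene, differed by 2.72 and *Hsd17b10* by 1.27. The translocator protein gene *Tspo* differed by -1.21, and *Cyp11a1*, the enzyme gene for the first step of steroid synthesis, was listed at 0 in all 7 astrocyte samples and at 2.18, 24.2 and 53.0 in GFP- cells.

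Of 8 adiponectin pathway genes tested, the adaptor gene *Appl2* and the coactivator gene *Ppargc1a* were called higher, by 1.99 and 1.43, and *Cdh13*, which encodes the adiponectin-binding T-cadherin, and the AMPK subunit gene *Prkaa1* lower, by -4.43 and -2.06. Of 6 G protein α subunit genes, *Gnao1* was called higher, by 2.59. *Gnai1*, *Gnai2*, *Gnas* and *Gnal* were called lower, of which *Gnai1* differed by -2.34, *Gnai2* by -0.66 and *Gnas* by -0.68, and with equal upper quartiles those of *Gnai2* and *Gnas* turned to 0.10 and 0.07. Of 4 ceramidase genes tested, *Acer2* and *Asah2* were called lower, by -5.40 and -3.46, and *Asah1*, the acid ceramidase gene, higher, by 0.63, a call that 10 of 20 alternatives did not keep. The call of *Prkaa1* was lost in 5 of 20 alternatives, which include leaving out any 1 of the 3 GFP- samples, and that of *Gnai2* in 4 and of *Ppargc1a* in 3, each also without GFP- replicate 3. Those of *Gnas* in 3, *Serbp1* in 2, *Tspo* in 1, *Gnal* in 2 of 19 and *Asah2* in 1 of 19 were lost under other scalings, tools or the replicate block, and that of *Mmd* in 2, which include leaving out GFP- replicate 1.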

How the data were processed

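RNAseq was performed by the authors on 19 samples of FACS-isolated cells. The authors amplified cDNA by PCR from low inputs, mapped reads to mm10 with STAR 2.4.0, and counted them on constitutive gene regions of FAST DB. The deposited values are a signal, the counts divided by 1 DESeq2 size factor per sample. Strand use and the treatment of multimapping reads are not given in the sources used here. Whole reads were recovered from 100% of values, within 0.01, and were used for edgeR and DESeq2. The use of molecular identifiers is not given in the sources used here, so PCR copies may be counted as separate reads. Lengths and overlaps were taken from GENCODE M21, which matched all 147 listed genes.

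Testing used limma 3.58.1 (R 4.3.3; mean-variance trend) on log2(level + 1) of the samples compared, for genes whose mean level reached 10 in 1 or both groups. Fold changes are on this scale and are understated for low genes. Exact permutation tests were two-sided, on mean log2 levels. Samples were grouped by the labels; 1 further item of the APP genotype is not reported here. All 10 members were named, with the called genes of pathway lists (at most the 4 with the smallest *p* per list and comparison) and, for *Paqr6*, *Paqr7*, *Paqr8* and *Adipor2*, the 3 genes with the highest Pearson's r. Members and lists were chosen with earlier results of these data known. Alternatives were pseudocounts of 0.1 and 10, no minimum level or 100, scaling by totals or by upper quartiles, a joint fit of the 19 samples, the quasi-likelihood test of edgeR (4.0.16), DESeq2 (1.42.0), calls by adjusted *p*, a fold of 2, a block for the replicate number, transcript length, and single samples left out. The analysis scripts were tested on simulated data.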

Additional observations from a re-analysis of the deposited data

Results flagged for a closer look

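Among 30 groups of values checked, 9 had a highest or lowest sample set apart from the others by Dixon's criterion. Chance alone meets it in about 1 of 20 groups of normally distributed values. Levels were checked on the linear scale, and the *Paqr9* groups hold mostly 0, so 9 of 30 cannot be judged against that rate. *Paqr5* was 210.9 in APP-SOCS3 replicate 1, with the next sample at 67.9. *Paqr6* was 11141 in WT-GFP replicate 2, with the next at 8439. *Paqr8* was 24055 in APP-SOCS3 replicate 2, with the next at 13827. *Paqr9* was 27.5 in WT-GFP replicate 4 and 17.4 in APP-GFP replicate 4, where all other samples of the group are at 0, and 13.7 in APP-SOCS3 replicate 4, with the next at 3.72. *Adipor1* was 3156 in WT-GFP replicate 3, with the next at 2232. In APP-SOCS3 replicate 3, *Adipor2* was 60.0 with the nearest sample at 180.2, and *Pgrmc2* was 698.1 with the nearest at 861.3. The first of these samples is also the APP-SOCS3 sample with most endothelial RNA.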

How the results depend on the processing

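The number of members called did not change in APP-GFP against WT-GFP under the 24 alternatives run. It became 0 with an adjusted *p* under 0.05 in both comparisons with APP-SOCS3, and without 1 sample it ran from 1 to 3 against APP-GFP (3 without APP-GFP replicate 1) and stayed at 1 against WT-GFP. Genes called numbered 513, 1301, 1197 and 11419 in APP-GFP against WT-GFP, APP-SOCS3 against APP-GFP, APP-SOCS3 against WT-GFP and astrocytes against GFP- cells. With an adjusted *p* under 0.05 the first 3 counts became 1, 1 and 7. With a minimum level of 100, all 4 became 123, 650, 441 and 6709, of 12928, 12796, 12705 and 15364 genes tested. The first became 817 with no minimum and 991 with all samples in one fit, for which the cause was not tested. Without 1 sample, counts ran from 393 to 677, 1052 to 1836, 904 to 1435 and 8838 to 11679. The share of lower genes among those called was 25.5, 59.1, 38.8 and 78.4%. It was 37.5, 69.9, 63.3 and 61.3% with edgeR, 61.3, 65.8, 70.8 and 64.6% with DESeq2, and 56.6% with equal upper quartiles in the fourth. With a minimum level of 100 it was 56.9, 75.5, 73.5 and 66.6%. In the first comparison, leaving out APP-GFP replicates 1, 2, 3 or 4 gave 38.3, 8.42, 39.4 or 45.8%, and leaving out WT-GFP replicates 2 or 3 gave 40.7 or 44.4%. Without 1 sample it ran in the others from 45.6 to 68.1%, 29.2 to 51.6% and 76.1 to 79.2%.

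The cause of sign changes was not tested. Among the members they were seen in differences that were not called or not tested, and among pathway genes in the called ones of *Gnai2* and *Gnas*, which turned to 0.10 and 0.07 between astrocytes and GFP- cells with equal upper quartiles. In APP-GFP against WT-GFP astrocytes, leaving out 1 sample gave -0.0014 to 0.19 for *Paqr4*, -0.11 to 0.091 for *Paqr6*, -0.26 to 0.13 for *Paqr7* and -0.0216 to 0.0893 for *Pgrmc1*, and edgeR gave 0.0092 for *Paqr6* and 0.0232 for *Paqr7*. In APP-SOCS3 against APP-GFP it gave -0.0045 to 0.19 for *Paqr6* and -0.45 to 0.15 for *Adipor2*, and against WT-GFP -0.19 to 0.0042 for *Adipor1* and -0.0064 to 0.14 for *Pgrmc2*. With equal upper quartiles, *Adipor1* and *Pgrmc1* stood at 0.16 and 0.0796 between astrocytes and GFP- cells.

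Samples with the same replicate number correlated at -0.19 to 0.21 after removal of group means, and not every sample correlated best with its own number. With the replicate number as a block, on the samples whose number both groups share, 676, 1143, 1415 and 11075 genes were called and no member call changed. *Paqr4* and *Pgrmc1* then stood at -0.0082 and -0.0761 in APP-GFP against WT-GFP and *Pgrmc2* at -0.0596 in APP-SOCS3 against WT-GFP. The same samples without the block, an alternative chosen after seeing the data, gave these same 3 differences, as the change lies in the samples used.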
